A study of Homo sapiens with 14 samples.

Results

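RAB proteins are small GTPases that mark the membranes of the cell and direct vesicle traffic between them. The transcripts of 56 RAB genes were followed in LNCaP cells treated with an androgen, with an inhibitor of protein synthesis, or with both. The genes are all those on the array whose current symbol is RAB, a number and at most 1 letter, and they are 56 of the 14533 named genes. RAB regulators with longer symbols, such as RABGAP1 or RABIF, were kept apart. Of the 56 genes, 20 were placed with the secretory route (endoplasmic reticulum, Golgi and exocytic vesicles), 19 with endosomes and 17 with neither. The placement is a simplification. RAB34 and RAB29, described below at the Golgi, were left with neither, and RAB13, described at tight junctions, was placed as secretory. Counts by role depend on such placements. The genes were picked by symbol and by no measured value, but earlier results of these data were known when the family was chosen.

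LNCaP is an established human prostate cancer line that responds to androgens. Cells were cultured for 36 h and deprived of steroids for 48 h. For the next 24 h they received 1 nM R1881 (a synthetic androgen), 25 µg/ml cycloheximide (CHX, which stops ribosomes), both agents added together, or no stimulation (control). Treated and control RNA were compared on 2-colour arrays in 2 independent culture experiments per treatment, each with a dye swap, which gave 4 arrays per comparison with control. A pair of further arrays compared CHX plus R1881 with CHX directly, as a dye swap of 1 experiment.

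A RAB protein works as a switch. Guanine nucleotide exchange factors load it with GTP, the GTP form recruits effectors such as tethers, motors and adaptors, and GTPase-activating proteins (GAPs) return it to the GDP form. Geranylgeranyl groups added by RAB geranylgeranyl transferase hold it in the membrane, and GDP dissociation inhibitor takes it out again for another round. Prostate luminal cells release large amounts of protein, and exocytic RABs such as RAB27A and RAB3 family members take part in regulated release in secretory cells.

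Each value below is a ratio of treated over control RNA on the log2 scale, averaged over the probes of a gene and over the dye swap, so that 1 unit is a 2-fold change. The labels do not name the numerator. The deposited values were multiplied by −1, which puts the androgen-induced genes TMPRSS2 at 1.65, KLK3 (prostate-specific antigen) at 0.98 and FKBP5 at 0.69 in R1881 versus control, and 9 of 10 genes of the androgen list above 0. Signs are therefore given as the likely direction, which no label settles. The check used R1881 versus control, and the CHX comparisons were assumed to be turned the same way. A gene was called where limma's Benjamini-Hochberg adjusted p over all 14533 genes was under 0.05. The ratios give no level of a transcript, so RAB genes cannot be ranked by abundance and the line's luminal markers can be read only as changes. In bulk RNA such as this, fewer cells of a kind and less RNA per cell cannot be told apart.

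With R1881 alone, no RAB gene was called at 24 h. Over all genes 0.00688% were called in this comparison, which is TMPRSS2 alone. Unadjusted p was under 0.05 for 6 of 56 RAB genes and for 6.34% of all genes. The RAB log2 ratios ran from −0.29 to 0.59 with a median of 0.0047, and 30 of 56 lay above 0. The 95% confidence intervals of the members reached 0.13 to 0.60 to either side of the ratio, with a median reach of 0.21. The dye swaps of this comparison correlated at only 0.134 and 0.216 across probes, against 0.788 and above in the CHX comparisons with control.

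The highest R1881 ratio belonged to RAB34, a Golgi and ciliary RAB. Its ratios were −0.06 and 0.15 with R1881 RNA in Cy3 and 0.15 and 2.13 with R1881 RNA in Cy5, for experiments 1 and 2. The mean of 0.59 therefore rested on 1 array, and without experiment 2 the ratio was 0.04. RAB27A, which docks secretory granules at the plasma membrane, gave 0.23 and 0.38 in Cy3 and 0.37 and 0.34 in Cy5. All 4 RAB27A arrays lay above 0 and close together, with a mean of 0.33 ± 0.08 (SE, n = 2 experiments), a 95% interval of 0.13 to 0.53 and an adjusted p of 0.504. The SD between its experiments was 0.04 with R1881, 0.13 with CHX and 0.15 with CHX plus R1881, and the SE pools these. RAB32, a RAB of melanosomes, lysosome-related organelles and mitochondria, followed at 0.26, with arrays at 0.21, 0.29, 0.12 and 0.40 and an adjusted p of 0.803.

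At the other end stood the late endosomal RAB7A, the recycling endosome RAB4B and the autophagy-linked RAB24. RAB7A gave −0.11 and −0.39 in Cy3 and −0.05 and −0.62 in Cy5, a mean of −0.29 with an adjusted p of 0.927. Both RAB7A arrays of experiment 2 lay below both of experiment 1. RAB4B gave −0.17 and −0.39 in Cy3 and −0.20 and −0.36 in Cy5, a mean of −0.28 ± 0.07 (SE, n = 2 experiments) with an adjusted p of 0.497. RAB24 gave −0.24 and −0.33 in Cy3 and −0.17 and −0.23 in Cy5, a mean of −0.24 with an adjusted p of 0.648. All arrays of these 3 genes lay below 0, and none of the 3 passed the adjusted threshold.

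The remaining members with unadjusted p under 0.05 were RAB4A (mean 0.18, adjusted p 0.707 by limma), RAB9A (mean −0.21, adjusted p 0.626) and RAB31 (mean 0.15, adjusted p 0.759). RAB4A and RAB4B, close paralogs, thus had means of opposite sign with R1881. RAB31 moved with the dye: it read 0.45 and 0.30 with R1881 RNA in Cy3 and −0.21 and 0.04 with it in Cy5. By role, the median R1881 ratio was −0.01 for the secretory, −0.06 for the endosomal and 0.03 for the other RABs, and no member of any role was called. Quantile normalization gave all arrays against control the same distribution. Before it, SDs across probes were 0.18 to 0.25 on the R1881 arrays and 0.57 to 0.62 on the CHX arrays. Under it RAB4A, RAB27A and RAB31 rose and RAB4B, RAB9A and RAB24 fell, while the share of all genes called went to 5.12%.

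**Figure D1:**
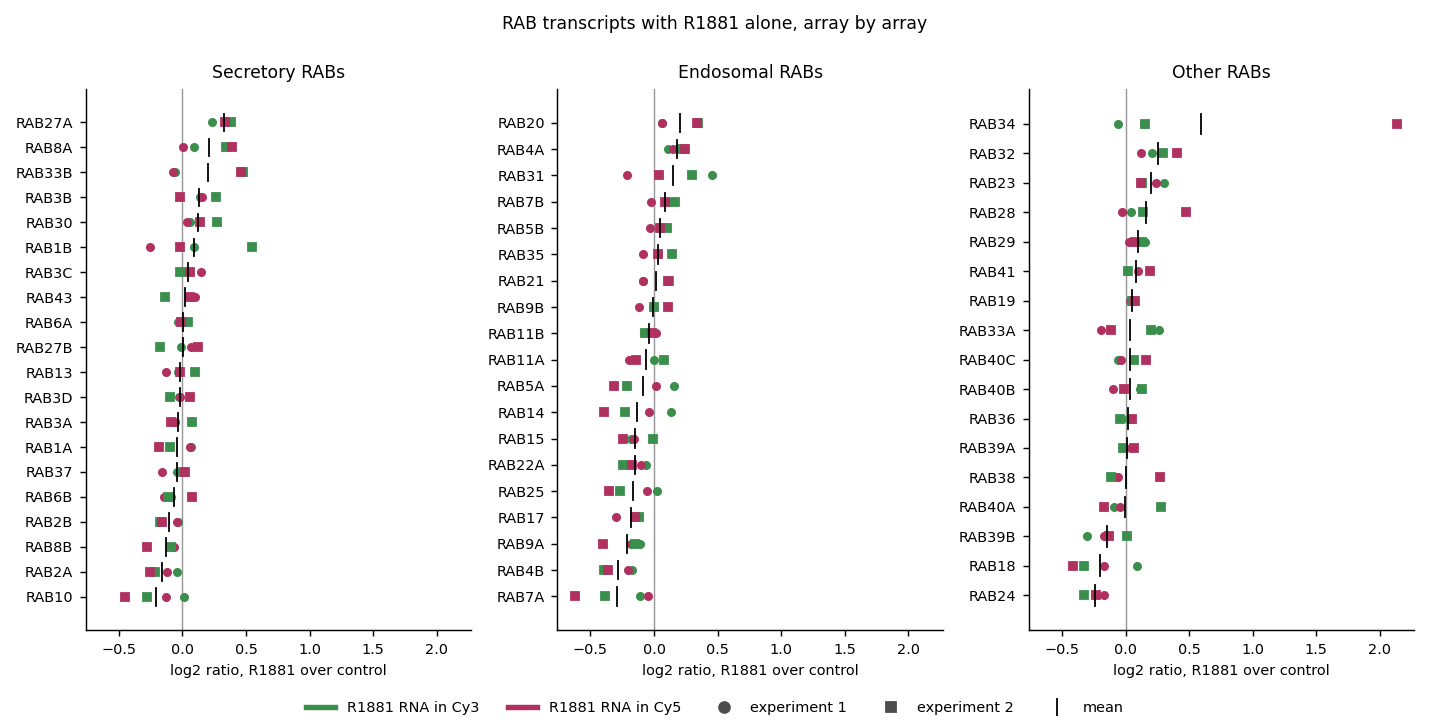
Log2 ratio of R1881 over control for the 56 RAB genes on each of the 4 arrays, by role; colour gives the dye of the R1881 RNA, shape the experiment, and the black bar the mean. Most genes straddle or hug 0, RAB34 has 1 array at 2.13, and the 4 arrays of RAB27A lie together between 0.23 and 0.38.

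With CHX alone, 26 of 56 RAB genes were called (46.4%), against 38% of all genes. Of the 26, 12 rose and 14 fell, where 20.5% of all genes rose and 17.5% fell. The RAB median was 0.02 and the all-gene median 0.0022. The members spread from −1.53 to 2.62, and with at least a 1.5-fold change 8 rose and 6 fell. Of all 14533 genes, 2985 (20.5%) were called with a change of at least 1.5-fold in either direction. For 25 of the 26 called genes, all 4 arrays had the same sign, RAB27B being the exception.

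RAB32 rose most. Its CHX ratios were 2.66 and 2.67 with CHX RNA in Cy3 and 2.27 and 2.89 in Cy5. The mean was 2.62 ± 0.11 (SE, n = 2 experiments), a 6.16-fold rise with an adjusted p of 0.00013. All 4 arrays stood far above 0 and above every other RAB gene in this comparison. RAB38, the other RAB that acts with RAB32 in melanosome formation, had a mean of −0.11 and was not called. HPS4, a subunit of the exchange factor of RAB32 and RAB38, fell by 0.55 on the log2 scale.

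RAB40B fell most. RAB40 proteins carry a SOCS box and join ubiquitin ligases. RAB40B gave −1.52 and −1.33 in Cy3 and −1.88 and −1.40 in Cy5. The mean of −1.53 ± 0.11 (SE, n = 2 experiments) is a 2.89-fold drop with an adjusted p of 0.000417, and all 4 arrays lay below those of every other RAB gene but RAB17, whose lowest array was −1.36. RAB40C also fell, to −0.29, while RAB40A was not called at 0.49, with 1 array at 1.49 and the others between −0.05 and 0.34.

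The RAB32 and RAB40B promoters are printed below, as the genes with the largest called change in each direction, with those of RAB6A and RAB6B, the only RABs of 1 number whose calls ran in opposite directions. The windows run from 250 bases before to 50 after the first start site that RefSeq lists for the gene (GRCh38.p14), 5′ to 3′ on the gene's strand. Capitals mark exact matches, on either strand, to the GC box GGGCGG (a binding sequence of SP1), to the androgen receptor half-site AGAACA, to the AP-1 element TGANTCA, to the E-box CACGTG or to the cyclic AMP response element TGACGTCA.
RAB32, chr6:146543583-146543882, plus strand: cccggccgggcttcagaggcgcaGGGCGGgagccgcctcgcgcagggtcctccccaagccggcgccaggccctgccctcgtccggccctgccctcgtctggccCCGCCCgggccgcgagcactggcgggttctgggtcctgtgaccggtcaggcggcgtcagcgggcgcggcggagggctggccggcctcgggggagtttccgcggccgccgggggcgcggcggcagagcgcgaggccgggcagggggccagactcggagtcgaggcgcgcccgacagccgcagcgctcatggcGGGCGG
RAB40B, chr17:82698649-82698948, minus strand: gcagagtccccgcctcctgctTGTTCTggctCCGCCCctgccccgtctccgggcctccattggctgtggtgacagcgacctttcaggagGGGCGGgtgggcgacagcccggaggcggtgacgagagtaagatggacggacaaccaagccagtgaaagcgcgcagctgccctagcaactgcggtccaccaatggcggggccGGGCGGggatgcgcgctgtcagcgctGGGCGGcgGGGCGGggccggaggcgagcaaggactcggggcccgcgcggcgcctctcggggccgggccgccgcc
RAB6A, chr11:73761025-73761324, minus strand: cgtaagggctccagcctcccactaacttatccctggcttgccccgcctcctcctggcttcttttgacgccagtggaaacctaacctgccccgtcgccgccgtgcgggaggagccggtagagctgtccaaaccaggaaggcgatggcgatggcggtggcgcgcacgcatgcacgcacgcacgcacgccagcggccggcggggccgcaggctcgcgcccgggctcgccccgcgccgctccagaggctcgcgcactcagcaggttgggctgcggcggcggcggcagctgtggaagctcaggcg
RAB6B, chr3:133895833-133896132, minus strand: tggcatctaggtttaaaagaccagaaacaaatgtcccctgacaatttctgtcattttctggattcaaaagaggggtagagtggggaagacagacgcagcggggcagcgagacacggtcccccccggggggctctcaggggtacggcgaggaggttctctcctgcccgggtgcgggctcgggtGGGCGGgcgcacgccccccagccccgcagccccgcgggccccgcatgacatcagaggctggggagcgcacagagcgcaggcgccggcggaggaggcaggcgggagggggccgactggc
The RAB32 window held 3 GC boxes and no other match. RAB40B held 5 GC boxes and 1 androgen receptor half-site on the opposite strand at −229, RAB6B held 1 GC box, and RAB6A held none of these letters. A window was found by symbol for 46 of the 56 genes. Among these 46, the GC box stood in 78.3% (44.6% of all 27305 windows), the E-box in 13.0% (7.43%), the androgen receptor half-site in 10.9% (14.9%), the AP-1 element in 6.52% (7.76%) and the cyclic AMP response element in 2.17% (1.98%). The median GC content was 65.3% for the RAB windows and 58.3% for all windows. The GC box was found in 9 of 11 windows of RABs that rose with CHX and in 9 of 12 of RABs that fell. No printed matches overlap. A match describes the letters only and shows no binding.

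Endosomal RABs had the highest share of calls. Of the 19 measured, 5 rose and 8 fell (68.4% called), with a median ratio of 0.02 and a median size of change, without sign, of 0.42. Of the 20 secretory RABs, 4 rose and 3 fell (35%), with a median of 0.02 and a median size of 0.20. Of the 17 others, 3 rose and 3 fell (35.3%), with a median size of 0.24. Over all genes 38% were called, so the secretory and other RABs stood near that share, and the median size was 0.19. The difference between the role groups was not tested, since genes are not replicates of a condition.

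Among endosomal RABs the largest rises were those of RAB5A, RAB14 and RAB21. RAB5A, which drives fusion of early endosomes, gave 1.74 and 1.26 in Cy3 and 1.65 and 1.15 in Cy5, a mean of 1.45 ± 0.15 (SE, n = 2 experiments) and a 2.73-fold rise with an adjusted p of 0.0011. RAB14, which works between Golgi and endosomes, gave 1.30 and 1.02 in Cy3 and 1.24 and 0.80 in Cy5, a mean of 1.09 ± 0.12 and an adjusted p of 0.00141. RAB21, which carries integrins through early endosomes, gave 1.02 and 0.98 in Cy3 and 1.04 and 1.18 in Cy5, a mean of 1.06 ± 0.09 and an adjusted p of 0.000589. All 12 arrays of these 3 genes lay well above 0. RAB35, a RAB of fast recycling and cytokinesis, rose by less, from experiments at 0.30 and 0.55 to a mean of 0.42. RAB5B rose to 0.24 with experiments at 0.23 and 0.24, and lost its call when either CHX experiment was left out.

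The largest endosomal falls were those of RAB17, RAB4A and RAB20. RAB17, an epithelial RAB of polarised recycling, gave −1.02 and −0.71 in Cy3 and −1.36 and −0.82 in Cy5, a mean of −0.98 ± 0.18 (SE, n = 2 experiments) with an adjusted p of 0.00819. RAB4A, which returns cargo quickly from early endosomes, gave −0.74 and −0.72 in Cy3 and −1.14 and −0.93 in Cy5, a mean of −0.88 ± 0.06 with an adjusted p of 0.000341. RAB20, a RAB of endosomes and phagosomes, gave −0.85 and −0.68 in Cy3 and −0.79 and −0.64 in Cy5, a mean of −0.74 ± 0.09 with an adjusted p of 0.0017. These arrays all lay below −0.60. RAB4B gave −0.59 and −0.75 in Cy3 and −0.77 and −0.63 in Cy5, a mean of −0.69 ± 0.07 with an adjusted p of 0.000896. RAB7B was called at −0.57 with experiments at −0.77 and −0.37, and RAB15, a RAB of early and recycling endosomes, at −0.55 with experiments at −0.53 and −0.56. RAB11B fell to −0.42 and RAB9B to −0.31. Neither RAB7A nor RAB11A, the widely used paralogs of late and recycling endosomes, was called, with means of 0.37 and 0.10 and RAB7A experiments far apart at 0.71 and 0.04.

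Secretory RABs that rose were RAB30, RAB10, RAB1A and RAB6A, 4 of 20, where 20.5% of all genes rose. RAB6A is given with its paralog further below. Other members of the group did not rise: RAB6B was called at −0.31. RAB1B (0.10), RAB33B (0.19) and RAB43 (−0.04) were not called. RAB30, a Golgi RAB, gave experiments at 0.48 and 1.03 and a mean of 0.76 ± 0.13 (SE, n = 2 experiments) with an adjusted p of 0.00762. RAB10, which carries Golgi vesicles to the cell surface, gave 0.90 and 0.56, a mean of 0.73 ± 0.12 with an adjusted p of 0.0055. RAB1A, needed between endoplasmic reticulum and Golgi, gave 0.59 and 0.49, a mean of 0.54 ± 0.07 with an adjusted p of 0.0029. The experiments of each gene shared their sign, and RAB1A was the tightest of the 3. RAB8A, a RAB of exocytosis and cilia, had a larger mean than RAB1A at 0.59, but its experiments at 0.32 and 0.85 left an adjusted p of 0.0623.

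None of the RAB3 genes was called. RAB3A, RAB3B, RAB3C and RAB3D, which act at secretory granules and synaptic vesicles, had CHX means between 0.01 and 0.09. The 95% intervals of the 4 lay between −0.13 and 0.23. RAB27B, the paralog of RAB27A, fell to −0.27 with arrays at −0.36, −0.47, −0.29 and 0.02, and RAB13, a RAB of tight junctions, fell to −0.41 with experiments at −0.56 and −0.26. RAB27A, at −0.13, and RAB37, at −0.13, were not called. RAB2A and RAB2B, which act between endoplasmic reticulum and Golgi, had ratios of −0.24 and −0.21 with adjusted p values of 0.0518 and 0.124.

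Of the remaining RABs, RAB24 rose most after RAB32. It gave 1.38 and 1.13 in Cy3 and 1.35 and 1.12 in Cy5, a mean of 1.24 ± 0.07 (SE, n = 2 experiments), 2.37-fold, with an adjusted p of 0.000244. RAB23, a negative regulator of Hedgehog signalling, gave experiments at 0.90 and 0.46 and a mean of 0.68 with an adjusted p of 0.00593. RAB29, a RAB of the trans-Golgi network that recruits the kinase LRRK2, fell to −0.65, but its experiments stood at −0.96 and −0.34 and the adjusted p of 0.0427 lay near the threshold. The 30 members that were not called lay between −0.45 (RAB18) and 0.59 (RAB8A).

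Leaving out a CHX experiment changed the counts of calls. Without CHX experiment 1 the called falls went from 14 to 6, with RAB6B, RAB9B, RAB11B, RAB13, RAB17, RAB27B, RAB29 and RAB40C lost, and called rises went from 12 to 11. Over all genes the same omission took the falls from 2537 to 1450 and the rises from 2982 to 2247. Without CHX experiment 2 the called falls and rises of the RABs were also fewer, as were those of all genes. RAB1A, RAB5A, RAB14, RAB21, RAB24 and RAB32 among the rises, and RAB4A, RAB4B, RAB7B, RAB15 and RAB40B among the falls, were called under each of the 14 alternative fits.

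**Figure D2:**
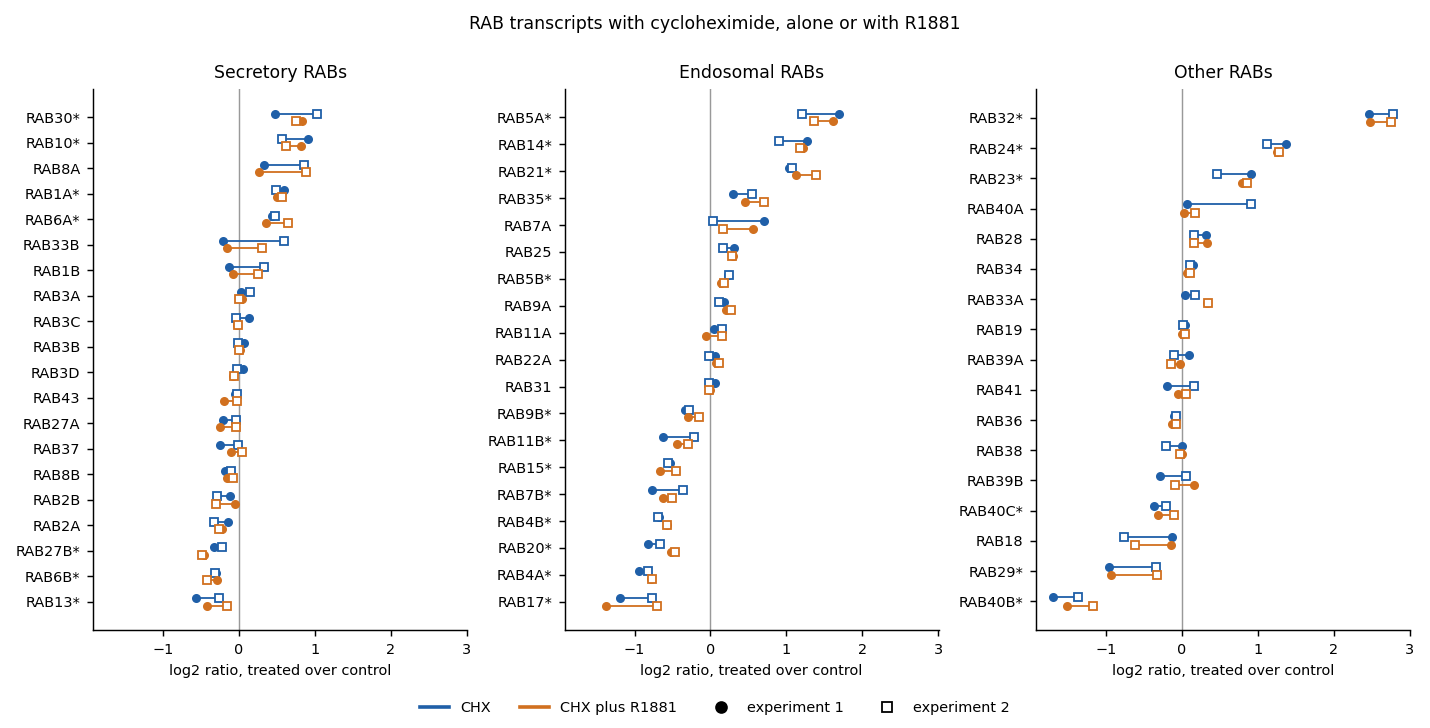
Log2 ratio over control of the 56 RAB genes with CHX (blue) and with CHX plus R1881 (orange), by role; circles are experiment 1, squares experiment 2, and the line joins the 2 experiments. An asterisk marks the 26 genes called in CHX versus control; RAB32 stands at 2.62 and RAB40B at −1.53, and blue and orange lie close together for most genes.

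Calls were then compared between paralogs. The measured RABs include 14 sets of genes that share a number. In 2 sets every member was called in the same direction: both RAB4 genes fell and both RAB5 genes rose, though RAB5A by 1.45 and RAB5B by 0.24. In 6 sets (RAB1, RAB7, RAB9, RAB11, RAB27 and RAB40) some members were called and others were not, and in 5 (RAB2, RAB3, RAB8, RAB33 and RAB39) none was. A call in 1 paralog and none in another does not show that they differ, and the difference within a set was not tested. How often unrelated RABs received unlike calls was not computed, so the counts show no trait of paralogs.

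In the RAB6 set, which serves traffic at the Golgi, the calls ran in opposite directions. RAB6A, the widely expressed form, gave 0.43 and 0.53 in Cy3 and 0.44 and 0.41 in Cy5, a mean of 0.45 ± 0.08 (SE, n = 2 experiments), with an adjusted p of 0.00793. RAB6B, best known from neurons, gave −0.33 and −0.32 in Cy3 and −0.28 and −0.32 in Cy5, a mean of −0.31 ± 0.06, with an adjusted p of 0.0117. The arrays of the 2 genes did not overlap, but the pair was picked for its opposite calls. Neither call held with a CHX experiment left out. The same directions were called with CHX plus R1881, at 0.51 and −0.36.

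Probes of the same gene did not always match. RAB6A was read by a probe that the platform names RAB6A (0.55) and by another that it names RAB6C (0.36), a near-identical copy, so signal from the copy cannot be told apart from that of RAB6A in the latter. RAB11B was read by probes at −0.77 and −0.06, of which only the first was called, RAB28 by probes at 0.50 (adjusted p 0.0471 over probes) and −0.02, and RAB37 by probes at −0.39 (adjusted p 0.00966 over probes) and 0.13. The probes of RAB28 and of RAB37 differ in sign, and in each gene 1 probe passed while the gene's mean did not. RAB2B probes read −0.22 and −0.20, and RAB36 probes 0.01 and −0.19. The other 50 RAB genes had 1 probe each. The probe named RAB41 carries a model accession, and since RAB41 is also an older name of RAB43, its identity is uncertain.

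**Figure D3:**
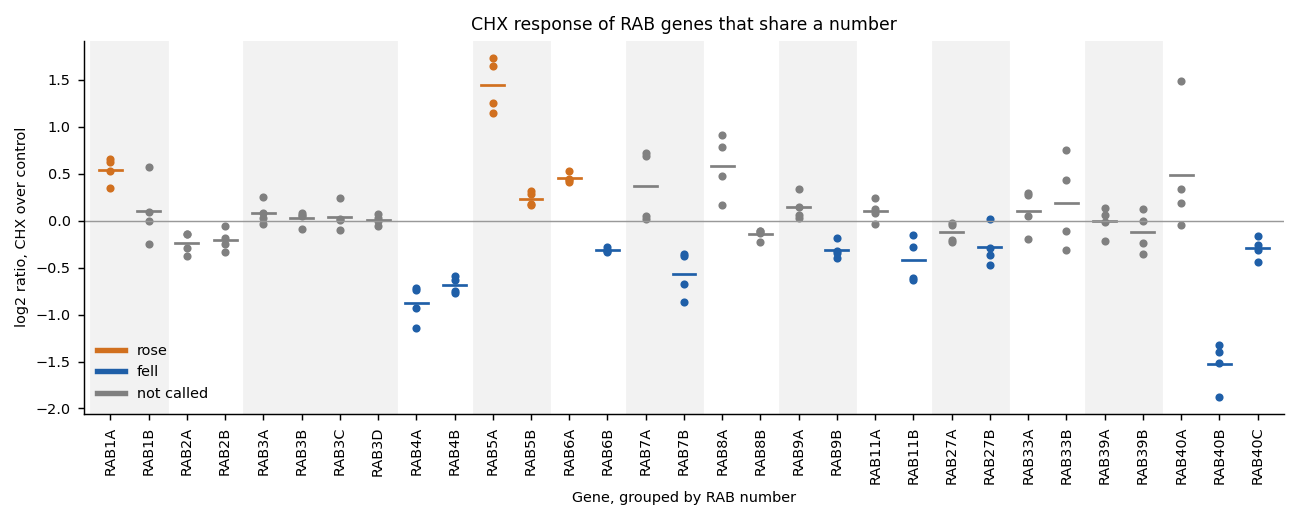
Log2 ratio of CHX over control for RAB genes that share a number, on each of the 4 arrays (points) with the mean (bar), coloured by call; shading separates the sets. The 4 arrays of RAB6A lie above 0 and those of RAB6B below, both RAB4 genes fell, and the 4 RAB3 genes stay near 0.

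With CHX plus R1881, 25 of 56 RAB genes were called (44.6%), 13 up and 12 down, against 37.5% of all genes (20.8% up, 16.6% down). The comparison shares its control with the CHX comparison, so the values are given side by side. In both comparisons 23 genes were called in the same direction, 3 were called with CHX alone (RAB5B, RAB13 and RAB40C), 2 with CHX plus R1881 alone (RAB9A and RAB33A), and 28 in neither. The same overlap was not counted over all genes, so these counts show no trait of RABs. RAB32 stood at 2.61 (2.62 with CHX alone), RAB5A at 1.49 (1.45), RAB24 at 1.26 (1.24), RAB14 at 1.20 (1.09) and RAB21 at 1.26 (1.06). RAB40B stood at −1.34 (−1.53), RAB17 at −1.04 (−0.98), RAB4A at −0.77 (−0.88), RAB4B at −0.57 (−0.69) and RAB20 at −0.50 (−0.74). By role the median was −0.03 for secretory, 0.05 for endosomal and 0.02 for other RABs, with 6 of 20, 13 of 19 and 6 of 17 called. Without experiment 1 of this treatment the called RAB falls were fewer, as were those of all genes.

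RAB33A, a paralog of the Golgi RAB33B, was called with both agents and not with CHX alone. It gave 0.55 and 0.47 in Cy3 and 0.11 and 0.22 in Cy5 with CHX plus R1881, a mean of 0.34 ± 0.06 (SE, n = 2 experiments) and an adjusted p of 0.00767, while CHX alone gave 0.11. Its arrays were higher with treated RNA in Cy3 in all 3 treatments, and R1881 alone gave 0.04. RAB9A, which returns receptors from late endosomes to the Golgi, reached 0.24 with both agents and 0.15 with CHX.

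The effect of R1881 in the presence of CHX was tested as the difference of these 2 terms. No RAB gene was called in this contrast, where 0% of all genes were called (limma, 185 genes at an unadjusted p under 0.05). Among the RABs only RAB33A had an unadjusted p under 0.05 (difference 0.23, 95% interval 0.02 to 0.44, not adjusted for the number of genes). The 2 terms were treated as independent, while deviations of their same-numbered experiments correlated at 0.564 across genes. If the experiments were paired, the SE and interval of the difference are too wide. With the experiment number as a block, no RAB gene was called either. The RAB differences ran from −0.40 to 0.25 with a median of 0.01. The 2 direct arrays gave a RAB median of 0.0052 and a range of −0.12 to 0.41, read as values only. The highest was RAB41, at 0.04 on 1 array and 0.78 on its swap, followed by RAB31 at 0.58 and −0.19, so neither was seen in both dye orientations. RAB33A gave 0.10 and −0.17 there.

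Whether the R1881 response itself changed with CHX was tested as a further contrast. No RAB gene was called, and 0% of all genes were (limma, 356 genes at an unadjusted p under 0.05, 3 of them RABs). The terms were again treated as independent. RAB27A had 0.33 without CHX and −0.02 with it, a difference of 0.35 with a 95% interval of 0.01 to 0.69. RAB4B had −0.28 and 0.11, a difference of −0.40 with an interval of −0.68 to −0.11, and RAB9A had −0.21 and 0.09, a difference of −0.30 with an interval of −0.57 to −0.03. These intervals are not adjusted for the number of genes, and the adjusted p of each rounded to 1.

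The genes that switch, lipidate and read RABs were looked at beside them, as 4 lists with 95 measured genes. With CHX, 33 of the 95 rose and 18 fell (53.7% called), against 38% of all genes called, 20.5% up and 17.5% down. With R1881 alone none was called, and 8 had an unadjusted p under 0.05, as had 6.34% of all genes. The R1881 extremes were the motor MYO5C at 0.27, the tethers UNC13D at 0.27 and USO1 at 0.22, the GAPs SGSM2 at −0.38 and SGSM3 at −0.28, and MICAL1, an actin oxidase that binds RABs, at −0.36, with adjusted p values between 0.414 and 0.972.

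Of 6 lipidation and recycling genes, 1 rose and 3 fell with CHX (66.7% called, against 38% of all genes). The subunits of RAB geranylgeranyl transferase were called in opposite directions, RABGGTB at 0.57 (experiments 0.71 and 0.43, adjusted p 0.0121) and RABGGTA at −0.46 (−0.45 and −0.47, adjusted p 0.00939). RABAC1, a Golgi protein that binds prenylated RABs, fell furthest, to −1.30 ± 0.10 (SE, n = 2 experiments). RABIF, a chaperone of exocytic RABs, fell to −0.29.

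Of 20 exchange factors, 8 rose and 4 fell (60% called, against 38% of all genes). RABGEF1, which activates RAB5 and RAB21, rose to 1.33 with experiments at 1.43 and 1.22 and an adjusted p of 0.000284, and RAB5A and RAB21 rose with it. RIN1, RIN2 and RIN3 of the same list, which also act on RAB5, were not called, at −0.02, −0.09 and −0.01. All 3 DENND4 genes, exchange factors of RAB10, rose (DENND4A 0.85, DENND4B 0.95, DENND4C 1.17), as did RAB10. DENND5A rose to 0.97. DENND1A, an exchange factor of RAB35, was called at −0.56 while RAB35 was called at 0.42. HPS4, RAB3IP (−0.38, an activator of RAB8) and DENND2A (−0.21) were the other falls. These pairings of regulators with their RABs were made after the values were seen.

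Of 26 GAPs, 8 rose and 5 fell (50% called, against 38% of all genes). RAB3GAP2 reached 2.38 ± 0.07 (SE, n = 2 experiments, experiments 2.40 and 2.36, adjusted p 6.44e-05), and its partner RAB3GAP1 reached 0.70. The complex of both acts on RAB3 as a GAP and on RAB18 as an exchange factor. The RAB3 genes were not called, and RAB18 had −0.45 with experiments at −0.14 and −0.77. TBC1D22B rose to 1.15 and RABGAP1 to 0.91, while TBC1D14 was called at −0.60, SGSM2 at −0.51 and SGSM3 at −0.51.

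Of 43 effectors, 16 rose and 6 fell (51.2% called, against 38% of all genes). SYTL2, a granule tether that binds RAB27, rose to 2.63 ± 0.21 (SE, n = 2 experiments, experiments 2.88 and 2.37, adjusted p 0.000532). Other RAB27 effectors were called in both directions, MYRIP at 0.75 and MLPH at 0.51 against SYTL4 at −0.70 and SYTL1 at −0.39. MICALL1, an adaptor of recycling endosomes, rose to 1.54, the RAB5 effectors APPL1 and APPL2 to 1.20 and 0.80, and the motor MYO5B, which binds RAB11, to 1.11. GCC2, a Golgi tether, rose to 1.17 with experiments at 1.66 and 0.69. RABEP2 fell to −0.70, and the exocytic effectors RIMS1 to −0.65 and RPH3AL to −0.60, whereas the early endosome tethers EEA1 (0.21) and RABEP1 (0.19) were not called.

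**Figure D4:**
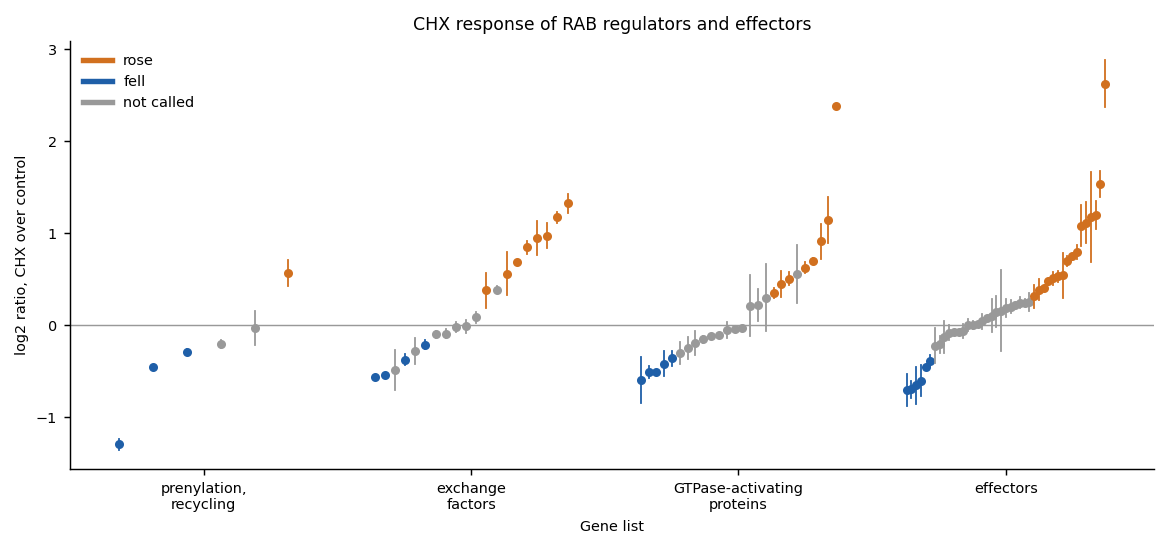
Log2 ratio of CHX over control for 95 RAB regulators and effectors, sorted within each list; points are means, vertical lines join the 2 experiments, and colour gives the call. RAB3GAP2 at 2.38 and SYTL2 at 2.63 stand highest, and RABAC1 at −1.30 lowest.

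Cell identity markers moved in the same CHX comparison. Of 8 measured luminal prostate genes, 5 fell and none rose (62.5% called, against 38% of all genes), among them ACP3 at −2.89, HOXB13 at −1.69 and KLK3 at −1.54. Of 10 neuroendocrine genes, STX1A rose to 1.43, ENO2 and NTS fell to −0.96 and −0.31, and the other 7 were not called (30% called, under the 38% of all genes). Their part in the RAB changes was not tested.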

How the data were processed

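The deposited table holds 1 log ratio per probe and array for 27648 probes on 14 arrays (2-colour) of LNCaP RNA. The labels' protocols give amplification and coupling to Cy3 or Cy5. How the authors scanned, background-corrected and normalized the arrays is not given in the sources used here, and neither is the base of the logarithm. The deposited values were taken as log2. With another base, sizes would change by a constant factor, and signs and adjusted p values would not. Array medians lay between −0.0037 and 0.0035. No intensities were used, so signal over background is unknown, and the number of arrays limits the precision.

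The dye swaps against control correlated above 0 as deposited, so the 2 arrays of each swap had been turned the same way. That the comparisons were turned alike was assumed, and all arrays were multiplied by −1. Across probes r was 0.134 and 0.216 with R1881, 0.882 and 0.788 with CHX, and 0.893 and 0.830 with CHX plus R1881. On the direct arrays r was −0.0427 and their direction was taken to be the same. The lowest correlation between any 2 arrays was −0.167. Probes were named through their accession in RefSeq (14721), or by current (1814), older (1085) or unmatched (91) platform symbols, and 9937 had no name here. Probes of a gene were averaged, then the arrays of a dye swap, giving n = 2 experiments per treatment. Limma 3.58.1 in R 4.3.3 was fitted to these 6 values with 1 term per treatment (3 residual and 2.57 prior degrees of freedom), and a call needed an adjusted p under 0.05 (Benjamini-Hochberg, 14533 genes). Ratios that share a control RNA were treated as independent. The SE is limma's, from a spread per gene pooled over the 3 treatments, and intervals are 95% with 5.57 degrees of freedom. The fit was tested on simulated data.

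The RAB genes, role groups, regulator lists and tests were chosen with earlier results of these data known. Named are the 3 highest and 3 lowest RABs with R1881, up to 10 called rises and falls with CHX, RABs with unlike probes, and the leading genes of each regulator list. Further RABs and regulators, and the pairing of regulators with RABs, were named after their values were seen. Alternatives were array median centring, scale and quantile normalization, the median of probes, platform symbols, either dye orientation, single probes, a 1.5-fold limit, the experiment number as a block, and each experiment left out.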

Additional observations from a re-analysis of the deposited data

Results flagged for a closer look

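Among the 4 arrays of a comparison, 1 array stood far from the other 3 for 6 of 168 combinations of a RAB gene and a comparison with control (3.57%). The limit used is passed in about 1 in 20 cases by chance for 4 independent values. The arrays are dye swaps of 2 experiments, so that rate is no yardstick for the 3.57%. With R1881, RAB34 read 2.13 on the array of experiment 2 with treated RNA in Cy5, and the others lay between −0.06 and 0.15. The same array read −0.28 for RAB8B (others −0.09 to −0.07), 0.27 for RAB38 (others −0.11 to −0.06) and 0.069 for RAB39A (others −0.02 to −0.01). RAB43 read −0.14 on the array of experiment 2 with treated RNA in Cy3 (others 0.06 to 0.10). With CHX plus R1881, RAB32 read 2.19 on the array of experiment 1 with treated RNA in Cy5 (others 2.71 to 2.81). No RAB gene passed the test for a different R1881 response with and without CHX.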

How the results depend on the processing

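With R1881, 0 RAB genes were called under every alternative but quantile normalization, which called 3 rises and 3 falls (435 and 309 over all genes). With CHX, the 14 falls became 8 under scale normalization, 7 under quantile normalization and 6 with at least a 1.5-fold change, and ranged from 6 to 14 with an experiment left out. The 12 rises became 11 under scale and 8 under quantile normalization and ranged from 9 to 13 with an experiment left out. With CHX plus R1881, scale normalization gave 12 rises and 9 falls, quantile normalization 10 and 8, at least a 1.5-fold change left 8 rises and 4 falls, and leaving out an experiment gave 9 to 13 rises and 7 to 12 falls. Over all genes, CHX falls went from 2537 to 1802 under scale and 1443 under quantile normalization, and rises from 2982 to 2362 and 1976. With CHX plus R1881, falls over all genes went from 2415 to 1804 and 1422, and rises from 3028 to 2550 and 2074. At least a 1.5-fold change was called in 20.5% of all genes in each of these comparisons. The fewer calls with an experiment left out come with fewer values in the fit. The cause of the other shifts was not tested. The experiment number as a replicate block gave 16 rises and 17 falls with CHX, adding RAB7A, RAB8A, RAB25 and RAB40A to the rises and RAB2A, RAB2B and RAB18 to the falls, and also 16 and 17 with CHX plus R1881. Over all genes the experiment number as a block gave 3522 rises and 3020 falls with CHX, and 3548 and 2884 with CHX plus R1881. The labels give no shared day or culture for a number; deviations of same-numbered experiments correlated at 0.292 (R1881 and CHX), 0.166 (R1881 and CHX plus R1881) and 0.564 (CHX and CHX plus R1881) across genes, and pairing called no RAB gene with R1881. The endosomal median with R1881 was −0.093 under scale and −0.14 under quantile normalization, −0.051 with platform symbols, −0.027 with treated RNA in Cy3 only and −0.14 in Cy5 only, and −0.041 to −0.032 without an R1881 experiment. With treated RNA in Cy3 only the endosomal median was 0.17 with CHX and 0.14 with CHX plus R1881, where Cy5 only gave −0.049. With an experiment left out the secretory median ran from −0.085 to −0.021 with CHX and from −0.077 to −0.0057 with CHX plus R1881, against 0.02 for CHX with both experiments. RAB6A was called with CHX from the probe of that platform name alone, an alternative chosen after seeing the data.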
